A study of Homo sapiens with 6 samples.

Results

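The miR-99/100 and miR-125 families were described here in small RNA libraries of BCSCs, stem-like cancer cells raised from MDA-MB-231, a triple-negative line of human breast carcinoma. Every listed mature strand of miR-99a, miR-99b, miR-100, miR-125a and miR-125b was taken by its name, which gave 11 of the 449 miRNAs in the deposited values. Of these, 6 strands belong to miR-99/100 and 5 to miR-125, and 5 are 5p strands and 6 are 3p strands. Cells were kept for 48 h with 200 μg/mL rosmarinic acid (RA), a plant phenolic acid purified from S. glabra (3 libraries), or without it (3 control libraries). All libraries share the parental line, a history of sphere culture and medium with serum during the treatment. The methods state that RA was dissolved in DMSO and list the dose without RA among these concentrations. They also name DMSO as the vehicle group of the viability assay.

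A miRNA is cut from a hairpin RNA whose arms give a 5p and a 3p strand, and the bases at positions 2 to 8 of the strand, the seed, lead the choice of target mRNAs. In animals miR-100, let-7 and miR-125 lie next to each other in an old gene cluster, and the human genome keeps 3 copies of it, each with 1 hairpin of the miR-99/100 family, 1 of let-7 and 1 of miR-125. The strands of a cluster can be cut from a shared primary transcript, so their levels are often set side by side. miR-99/100 strands are known to repress mTOR, miR-125 strands and let-7 are known to repress LIN28A, and let-7 restrains stem-like growth in breast cancer cells.

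The 5p strands are shown because the seed divides the members into the 2 families. Sequences and positions are from RefSeq (GRCh38.p14), bases 2 to 8 are in capitals, and all 11 strands had a sequence. The prefix hsa-, for human, is left out elsewhere.
hsa-miR-99a-5p: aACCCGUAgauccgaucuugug
hsa-miR-99b-5p: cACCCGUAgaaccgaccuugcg
hsa-miR-100-5p: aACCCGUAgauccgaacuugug
hsa-miR-125a-5p: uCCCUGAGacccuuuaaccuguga
hsa-miR-125b-5p: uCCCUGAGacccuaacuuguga
The seed ACCCGUA was shared by miR-99a-5p, miR-99b-5p and miR-100-5p, and CCCUGAG by miR-125a-5p and miR-125b-5p. No other miRNA among the 404 of 449 with a sequence in the table carried either seed. Counted from 1 at the 5′ end, miR-100-5p differs from miR-99a-5p at a single base (U16A), so that reads of this pair could be shared in counting. miR-99b-5p differs from miR-99a-5p at 4 bases (A1C, U11A, U16C and U21C). miR-125b-5p and miR-125a-5p have the same first 13 and last 5 bases and are 22 and 24 bases long.

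The deposited values carry no coordinates, and the submitters' notes name the build hg19, so positions here are those of GRCh38. miR-99b-5p lies at chr19:51692618-51692639 and miR-125a-5p at chr19:51693268-51693291, both on the plus strand in an intron of the protein-coding gene SPACA6. Their hairpins and that of let-7e between them span 728 bases, with gaps of 104 and 389 bases. miR-99a-5p lies at chr21:16539101-16539122 on the plus strand, within an intron of MIR99AHG, a non-coding gene, 658 bases between hairpins from let-7c. miR-100-5p lies at chr11:122152275-122152296 on the minus strand, within an intron of MIR100HG, also non-coding, together with let-7a-2. miR-125b-5p has the same sequence at chr11:122099809-122099830 (minus strand, MIR100HG) and chr21:16590253-16590274 (plus strand, MIR99AHG), so its reads cannot be assigned to either cluster. These wide clusters span 52.552 kb on chromosome 11 and 51.237 kb on chromosome 21 (gene models of GENCODE v29).

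Values are CPM, reads of a miRNA scaled to an effective library size that the authors set. RA libraries 1, 2 and 3 held 1158116, 176590 and 298412 miRNA reads, and the controls held 2190324, 4111404 and 3423545. One read stood for 0.987, 5.21 and 2.91 CPM in RA libraries 1, 2 and 3, against 0.233 to 0.526 CPM in the controls. Libraries correlated at 0.917 to 0.933 within RA at 0.989 to 0.993 within controls and at 0.921 to 0.952 between RA and control (Pearson r of log2 values, as a description). RA libraries 1 and 2 correlated more closely with every control (0.942 to 0.952) than with any RA library. Every other library correlated least with RA library 3 (0.917 to 0.929). RA library 3 had 409 miRNAs above 0 CPM, against 369 and 321 in RA libraries 1 and 2 and 359 to 375 in controls. miR-122-5p, the defining liver miRNA, stood at 9493 CPM in RA library 1, 5.21 in RA library 2 and 0 in RA library 3, against 1.61 to 32.1 CPM in controls. The endothelial pair miR-126-3p and miR-126-5p summed to 412, 0 and 233 CPM in RA libraries 1, 2 and 3, against 3.16 to 8.99 CPM in controls. All 8 blood markers were listed and summed to 1683 to 2684 CPM in RA libraries and 1936 to 2104 CPM in controls, but single markers differed. The red-cell miRNA miR-451a stood at 824, 26.0 and 355 CPM in RA libraries 1, 2 and 3, against 5.26, 33.8 and 6.10 CPM in controls 1, 2 and 3. The myeloid miR-223-3p stood at 3.95, 20.8 and 145 CPM in the RA libraries, against 0.526, 3.72 and 0.321 CPM in the controls. miR-150-5p stood at 0, 0 and 212 CPM with RA and 0.642 to 1.05 CPM in controls. Other blood markers did not rise, with miR-142-3p at 315 to 573 CPM with RA and 570 to 704 CPM in controls. miR-486-5p stood at 240 to 397 and 363 to 398 CPM, and miR-142-5p at 823 to 1140 and 829 to 1138 CPM. Both miR-144 strands were at most 8.72 CPM in any library. Epithelial markers, of which 4 of 6 were listed and miR-141-3p and miR-205-5p were not, summed to 183 to 218 CPM in RA libraries and 195 to 277 CPM in controls, and all 5 mesenchymal markers to 42769 to 53752 CPM in RA libraries and 44149 to 56131 CPM in controls. Of the 5, 3 lay lower in every RA library than in every control. Of all 449 miRNAs, 25.8% had every RA library above or below every control. miR-199a-5p stood at 7867 to 11455 CPM with RA and 12362 to 15565 CPM in controls. miR-214-3p stood at 465 to 727 CPM with RA and 1020 to 1168 CPM in controls, and miR-145-5p at 166 to 276 and 316 to 502 CPM. The others overlapped, with miR-199a-3p at 19962 to 31040 CPM with RA and 19672 to 25436 CPM in controls. For miR-143-3p the values were 9370 to 14164 CPM with RA and 10454 to 13646 CPM in controls. Of 6 brain markers 3 were listed, with the defining miR-124-3p not among them, at sums of 3914 to 6022 CPM in RA libraries and 4892 to 5293 CPM in controls. Nearly all of each sum was miR-9-5p, at 3895 to 6022 CPM with RA and 4880 to 5278 CPM in controls. Of the other listed brain markers, miR-129-5p was at most 17.8 CPM and miR-219a-5p at most 4.21 CPM in any library. The part of these markers in the results below was not tested. The labels' extraction notes describe brain tissue and a NextSeq instrument, whereas the methods describe cultured cells and an Illumina HiSeq, and no source says whether the 3 libraries of a group are separate cultures, so the spread behind each p-value is that among these libraries and may be technical.

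None of the 11 strands passed limma's test of RA against control on log2(CPM + 1) at a Benjamini-Hochberg adjusted p under 0.05, while 7.57% of the 449 miRNAs did (13 higher and 21 lower). One strand, miR-125a-5p, had an unadjusted p under 0.05, and it was also the 1 strand called by edgeR's quasi-likelihood test on recovered reads, which called 15.4% of all miRNAs. No strand had all RA libraries on 1 side of all controls, against 25.8% of the 449. The median log2 fold change was -0.02 over the 11 strands and 0.00 over all miRNAs. Among the 260 miRNAs averaging 10 CPM or more it was -0.17, against 0.00 over the 9 strands at that level. In these bulk libraries, fewer cells of a type and less RNA per cell cannot be told apart.

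miR-125a-5p, known to repress ERBB2 and ERBB3 in breast cancer cells, gave the widest difference among the 5p strands. It stood at 3010, 1469 and 3184 CPM in RA libraries 1, 2 and 3, against 1099, 1590 and 1005 CPM in control libraries 1, 2 and 3. RA libraries 1 and 3 were above every control, and RA library 2, the shallowest library, was below control 2, so the groups overlapped. The highest miR-451a (824 and 355 CPM) and miR-126-3p (394 and 233 CPM) were also in RA libraries 1 and 3. Other such markers were high in only 1 of these libraries. In RA libraries 1 and 3, miR-122-5p stood at 9493 and 0 CPM and miR-126-5p at 17.8 and 0 CPM. miR-223-3p stood there at 3.95 and 145 CPM and miR-150-5p at 0 and 212 CPM. The part of these other-tissue signals was not tested. The mean was 2554 ± 944 CPM with RA and 1231 ± 314 CPM in controls (SD, n = 3 each), a ratio of 2.08 resting on 4425 and 12045 reads. The log2 fold change was 1.00 (standard error, SE, 0.30, 95% interval 0.35 to 1.65, limma adjusted p = 0.062), and 1.06 with an adjusted p of 0.028 from edgeR's quasi-likelihood test. The call thus depended on the test. It was also made with DESeq2 (adjusted p = 0.0075) and limma-voom (0.033) on the reads, and with limma under the 4 other scalings (0.018 to 0.049). It was made by limma without RA library 2 (log2 fold change 1.36, adjusted p = 0.045). With pseudocounts of 0.5 and 5 (adjusted p = 0.060 and 0.088) or without a trend (0.28), limma did not make the call. The same held for limma with either filter on low values (0.067 and 0.066) and without any other single library (0.091 to 0.45). In edgeR it was lost without RA library 3 (adjusted p = 0.089), control 1 (0.13), control 2 (0.0503) or control 3 (0.083). Of 25 alternatives, 11 called miR-125a-5p. Across all alternatives the log2 fold change lay between 0.80 and 1.36 and the adjusted p between 1.9e-05 and 0.45.

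miR-125b-5p, a miRNA linked to both tumor-promoting and tumor-restraining roles, was the most abundant member and ranked 19 of 449 by mean CPM. It stood at 8916, 7631 and 13048 CPM in RA libraries 1, 2 and 3, against 8901, 10459 and 9493 CPM in the controls. The RA libraries held both the lowest and the highest value, and the controls lay between them. The means were 9865 ± 2830 CPM with RA and 9618 ± 786 CPM in controls (SD, n = 3 each), with a log2 fold change of 0.00 (SE 0.22, 95% interval -0.48 to 0.49, limma adjusted p = 0.997). miR-125a-5p made up 25.2%, 16.1% and 19.6% of the miR-125 5p CPM in RA libraries 1, 2 and 3, against 9.57% to 13.2% in controls. Every RA library was above every control for this share, which was not tested. Such a separation is common here, as 35.7% of the within-library ratios between any 2 miRNAs averaging 10 CPM or more did not overlap.

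In the miR-99/100 family all 5p strands were of like level, with ranks 20, 22 and 24 of 449. miR-99b-5p stood at 9119, 8079 and 11382 CPM in RA libraries 1, 2 and 3, against 9489, 8689 and 9755 CPM in the controls. As for miR-125b-5p, RA library 3 was the highest and RA library 2 the lowest of all 6. Its log2 fold change was 0.02 (SE 0.19, 95% interval -0.40 to 0.44, limma adjusted p = 0.96). miR-99a-5p stood at 7848, 5834 and 6648 CPM in the RA libraries, against 7045, 5986 and 7589 CPM in the controls. RA library 1 was the highest and RA library 2 the lowest, and the log2 fold change was -0.02 (SE 0.19, 95% interval -0.45 to 0.40, limma adjusted p = 0.95).

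miR-100-5p, the near-twin of miR-99a-5p, stood at 7495, 5423 and 7171 CPM in RA libraries 1, 2 and 3, against 9342, 7389 and 10435 CPM in control libraries 1, 2 and 3. A single pair crossed, RA library 1 being above control 2, so the groups overlapped. The means were 6696 ± 1115 CPM with RA and 9055 ± 1543 CPM in controls (SD, n = 3 each), with a log2 fold change of -0.44 (SE 0.21, 95% interval -0.89 to 0.02, limma adjusted p = 0.25). It did not pass limma's test, and of all alternatives only edgeR without RA library 1 called it (log2 fold change -0.52, adjusted p = 0.040).

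**Figure D1:**
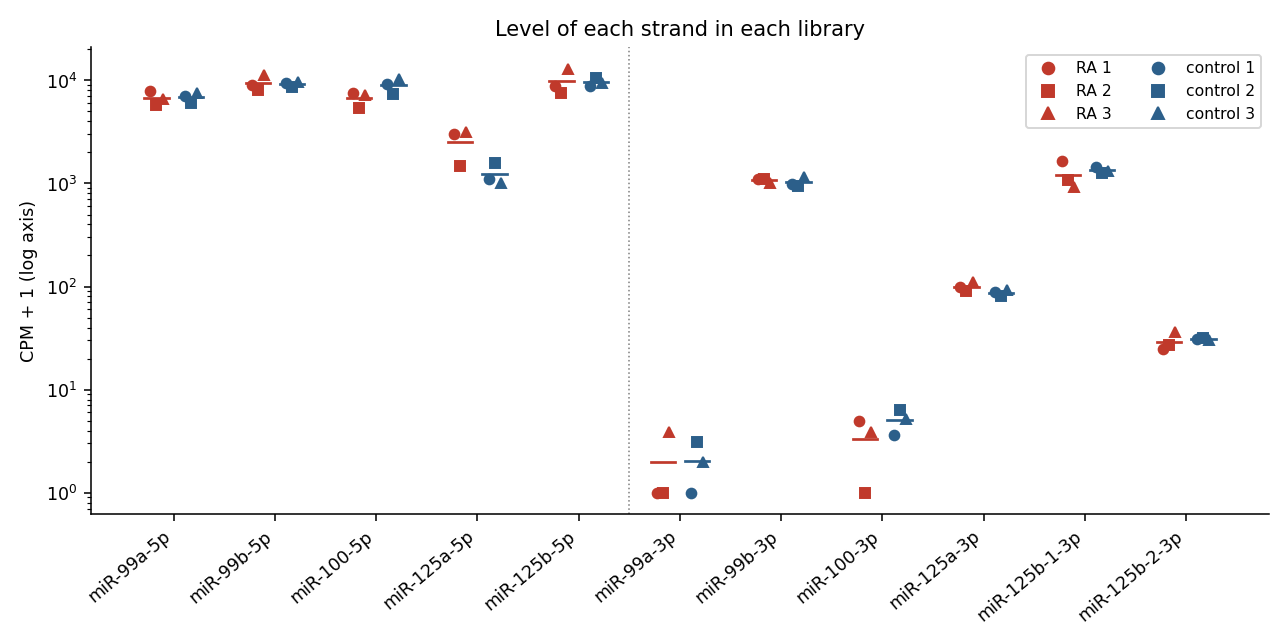
CPM + 1 (log axis) of the 11 strands in each library, RA left of control, with 5p strands left of the dotted line. Points are libraries (circle 1, square 2, triangle 3) and short lines are group means. miR-125a-5p stands at 3010, 1469 and 3184 CPM with RA and 1099, 1590 and 1005 CPM in controls, and the other 5p strands lie between 5423 and 13048 CPM in both groups.

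Each 3p strand was scarcer than the 5p strand of its name, with the reads of both miR-125b hairpins pooled. miR-99b-3p stood at 1113, 1110 and 1015 CPM in RA libraries 1, 2 and 3, against 990.1, 944 and 1144 CPM in the controls. Control 3 was the highest, and the log2 fold change was 0.08 (SE 0.18, limma adjusted p = 0.81). miR-125a-3p stood at 97.8, 88.6 and 110.5 CPM in the RA libraries, against 87.9, 80.1 and 90.6 CPM in the controls. RA libraries 1 and 3 were above every control and RA library 2 was not, as for its 5p strand. These values rest on 99, 17 and 38 reads in RA libraries 1, 2 and 3, so their order may reflect counting error. The log2 fold change was 0.19 (SE 0.26, 95% interval -0.39 to 0.77, limma adjusted p = 0.71).

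The 3p strands of miR-125b differ between its hairpins, and so they are the strands that tell the chromosome 11 copy from the chromosome 21 copy. Their sequences show this, with bases 2 to 8 again in capitals.
hsa-miR-125b-1-3p: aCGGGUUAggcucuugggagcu
hsa-miR-125b-2-3p: uCACAAGUcaggcucuugggac
miR-125b-1-3p, from chromosome 11, stood at 1662, 1073 and 922 CPM in RA libraries 1, 2 and 3, against 1441, 1255 and 1319 CPM in the controls. miR-125b-2-3p, from chromosome 21, stood at 23.7, 26.0 and 34.9 CPM in the RA libraries, against 30.0, 30.7 and 29.5 CPM in the controls. For each, the RA libraries lay on both sides of the controls. The log2 fold changes were -0.18 (SE 0.23, limma adjusted p = 0.69) and -0.11 (SE 0.38, limma adjusted p = 0.88), the second resting on 41 reads with RA and 281 reads in controls. Of the reads of both 3p strands, hairpin 1 gave 97.5 ± 1.12% with RA and 97.8 ± 0.176% in controls (SD, n = 3 each).

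miR-99a-3p and miR-100-3p were near the limit of these libraries. miR-99a-3p had 1 read with RA and 12 reads in controls, and miR-100-3p had 5 reads with RA and 41 reads in controls. In RA library 2, 3 reads were worth 15.6 CPM and both strands had no read, so a difference between groups was not detectable at this depth.

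The share of the 5p strand was measured from recovered reads, with exact Clopper-Pearson intervals that cover counting error only. For miR-125a the 3p share was 3.15% (95% interval 2.56 to 3.82), 5.69% (3.35 to 8.95) and 3.35% (2.38 to 4.57) in RA libraries 1, 2 and 3, against 7.41% (6.36 to 8.57), 4.80% (4.31 to 5.32) and 8.27% (7.36 to 9.24) in controls 1, 2 and 3. RA libraries 1 and 3 were below every control, and RA library 2 was above control 2. The 5p share was thus 95.9 ± 1.41% with RA and 93.2 ± 1.81% in controls (SD, n = 3 each), 2.76 percentage points apart. For miR-99b the 5p share was 89.6 ± 1.99% with RA and 90.1 ± 0.534% in controls, and for miR-125b, both hairpins together, 88.2 ± 4.59% with RA and 87.5 ± 1.62% in controls (SD, n = 3 each). The 3p share of miR-125b was lowest in RA library 3 (6.83%) and highest in RA library 1 (15.9%), with the controls at 10.9% to 14.2% between them. For miR-99a and miR-100 the 5p strand was 99.9% or more of the reads in every library.

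**Figure D2:**
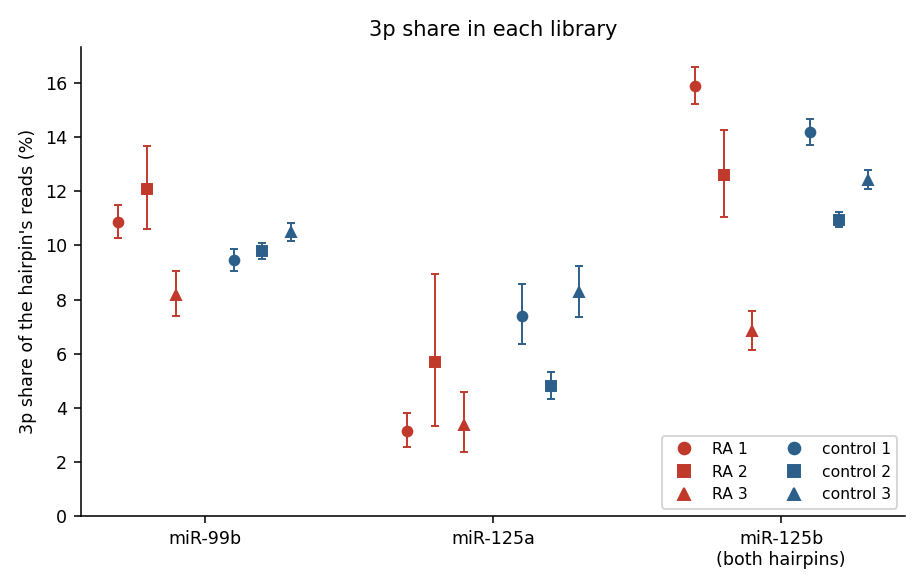
Share of each hairpin's reads that came from the 3p strand, in percent, for miR-99b, miR-125a and miR-125b, RA left of control. Points are libraries and bars are exact 95% counting intervals, widest in RA library 2. For miR-125a, RA libraries 1 and 3 (3.15% and 3.35%) lie below all controls (4.80% to 8.27%).

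The families were next compared across the let-7 clusters. The let-7 strands and the relative miR-10a-5p are shown to mark how their seeds differ from those of the members.
hsa-let-7e-5p: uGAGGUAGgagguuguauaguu
hsa-let-7c-5p: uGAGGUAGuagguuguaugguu
hsa-let-7a-5p: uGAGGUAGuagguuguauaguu
hsa-miR-10a-5p: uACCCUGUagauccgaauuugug
let-7c-5p and let-7a-5p differ by 1 base (G19A from let-7c-5p), so that reads of this pair could also be shared, and let-7a-5p is made from 3 loci, of which 1 is in the chromosome 11 cluster. let-7e-5p of chromosome 19 stood at 3690, 2589 and 2588 CPM in RA libraries 1, 2 and 3, against 3086, 2922 and 3230 CPM in the controls. The groups overlapped, with a log2 fold change of -0.08 (SE 0.20, limma adjusted p = 0.82). let-7c-5p of chromosome 21 stood at 16962, 9767 and 11193 CPM in the RA libraries, against 9881, 8458 and 9640 CPM in the controls. RA libraries 1 and 3 were above every control, and the log2 fold change was 0.40 (SE 0.23, limma adjusted p = 0.35).

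let-7a-5p stood at 25874, 13179 and 16253 CPM in RA libraries 1, 2 and 3, against 12221, 9890 and 13042 CPM in the controls. Every RA library was above every control, and 25.8% of the 449 miRNAs had all RA libraries on 1 side of all controls. The log2 fold change of let-7a-5p, 0.60 (SE 0.25, limma adjusted p = 0.19), did not pass. It passed with limma on library totals alone (adjusted p = 0.039) and with edgeR without RA library 2 (0.0078). Of the 6 let-7 strands of the clusters, 0 passed limma and 0 passed edgeR's test, against 7.57% and 15.4% of all 449 miRNAs. Of the 6, 1 had an unadjusted p under 0.05 in limma. The share of all miRNAs with such an unadjusted p was not taken. Over these 6 the median log2 fold change was 0.16. let-7c-3p, let-7e-3p and let-7a-2-3p had log2 fold changes of 0.51, -0.26 and -0.19, the last on 3 reads with RA and 22 reads in controls.

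miR-10a and miR-10b, the nearest relatives of miR-100 by sequence, lie in the HOX gene clusters outside these loci. Of their 4 strands, 0 passed limma and 0 passed edgeR's test, against 7.57% and 15.4% of all 449 miRNAs. Of the 4, 1 had an unadjusted p under 0.05 in limma. Over these 4 the median log2 fold change was -0.20. That strand, miR-10b-3p, stood at 521, 302 and 430 CPM in RA libraries 1, 2 and 3, against 511, 663 and 648 CPM in the controls. RA library 1 was above control 1, and the log2 fold change was -0.56 (SE 0.24, limma adjusted p = 0.20). Only edgeR without RA library 1 called it (adjusted p = 0.0087). miR-10a-5p, miR-10a-3p and miR-10b-5p had log2 fold changes of -0.24, -0.12 and -0.17.

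**Figure D3:**
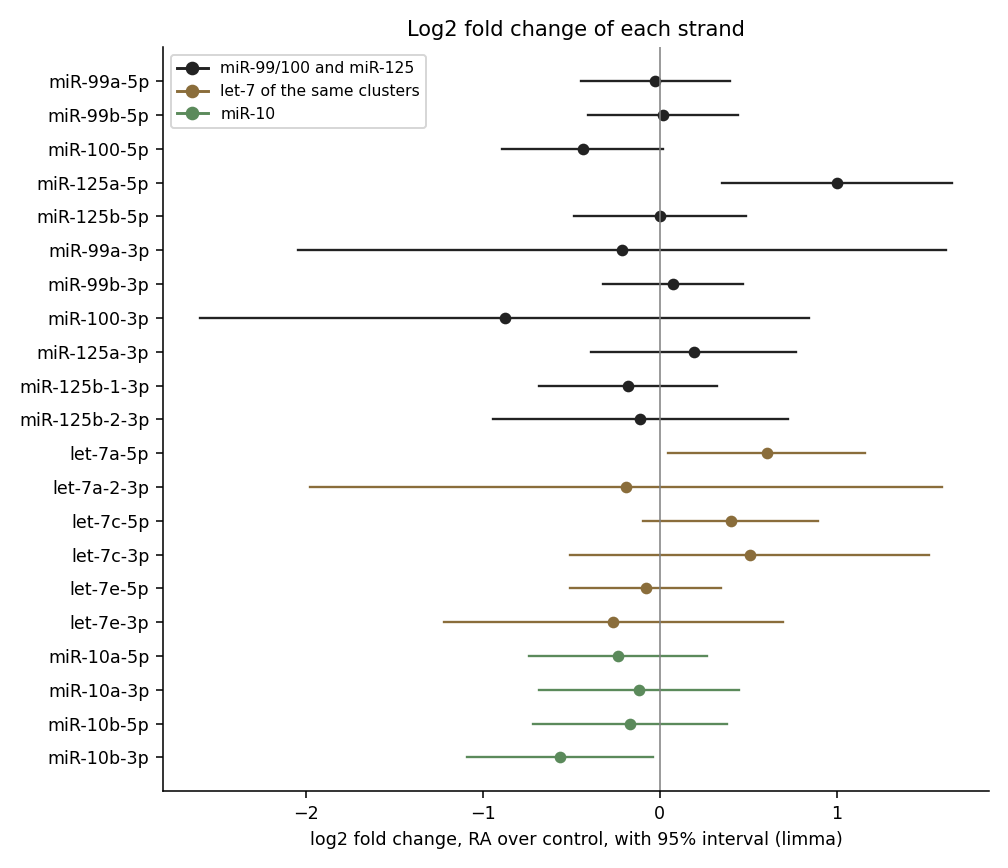
Log2 fold change of RA over control with its 95% interval from limma, for the 11 strands (black), the 6 let-7 strands of the same clusters (brown) and the 4 miR-10 strands (green). miR-125a-5p, at 1.00 (0.35 to 1.65), let-7a-5p and miR-10b-3p have intervals that leave out 0, and none passed the test after adjustment.

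Ratios within a library compare strands without the library's scaling, and 8 were computed, each tested with a two-sided exact permutation test whose smallest possible p is 0.1 for 3 against 3. Of the 8, 3 did not overlap between the groups, while 35.7% of the ratios between any 2 miRNAs averaging 10 CPM or more did not. The count of 3 is thus near its background. It leaves out the share of miR-125a-5p in the miR-125 5p CPM, given above, which also did not overlap. In the short cluster on chromosome 19, the ratio of let-7e-5p to miR-125a-5p was 1.23, 1.76 and 0.813 in RA libraries 1, 2 and 3, against 2.81, 1.84 and 3.21 in controls 1, 2 and 3. All RA libraries were below all controls, with RA library 2 and control 2 close to each other at 63.8% (exact interval 60.3 to 67.2) and 64.8% (64.1 to 65.4) let-7e-5p among the reads of the pair. The log2 ratio differed by -1.08 between RA and control (exact permutation p = 0.1, adjusted over the 8 ratios p = 0.27). The ratio of miR-99b-5p to miR-125a-5p was 3.03, 5.50 and 3.57 in RA libraries 1, 2 and 3, against 8.64, 5.47 and 9.71 in the controls. RA library 2 was just above control 2, and the log2 ratio differed by -0.98 (exact permutation p = 0.2, adjusted p = 0.40). The ratio of miR-99b-5p to let-7e-5p was 2.47, 3.12 and 4.40 in the RA libraries, against 3.08, 2.97 and 3.02 in the controls. The controls were nearly equal and the RA libraries lay on both sides of them, with a log2 difference of 0.10 (exact permutation p = 0.7, adjusted p = 0.90).

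In the wide clusters, the ratio of miR-99a-5p to let-7c-5p was 0.463, 0.597 and 0.594 in RA libraries 1, 2 and 3, against 0.713, 0.708 and 0.787 in the controls. All RA libraries were below all controls, with a log2 difference of -0.42 (exact permutation p = 0.1, adjusted p = 0.27). The ratio of miR-99a-5p to miR-100-5p was 1.05, 1.08 and 0.927 in the RA libraries, against 0.754, 0.810 and 0.727 in the controls. All RA libraries were above all controls, with a log2 difference of 0.41 (exact permutation p = 0.1, adjusted p = 0.27). In reads, miR-99a-5p made up 51.1% (exact interval 50.4 to 51.9), 51.8% (49.7 to 54.0) and 48.1% (46.7 to 49.5) of the pair with RA, against 43.0% (42.4 to 43.5), 44.8% (44.3 to 45.2) and 42.1% (41.7 to 42.5) in controls.

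Set against miR-125b-5p, the ratio of miR-100-5p was 0.841, 0.711 and 0.550 in RA libraries 1, 2 and 3, against 1.05, 0.706 and 1.10 in the controls. RA libraries 1 and 2 were above control 2, and the log2 difference was -0.44 (exact permutation p = 0.3, adjusted p = 0.48). The ratio of miR-99a-5p to miR-125b-5p was 0.880, 0.765 and 0.509 in the RA libraries, against 0.792, 0.572 and 0.799 in the controls, with a log2 difference of -0.03 (exact permutation p = 0.8, adjusted p = 0.90). The ratio of miR-100-5p to let-7a-2-3p rested on 3 reads of let-7a-2-3p with RA and 22 reads in controls and gave a log2 difference of -0.24 (exact permutation p = 0.9, adjusted p = 0.90).

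**Figure D4:**
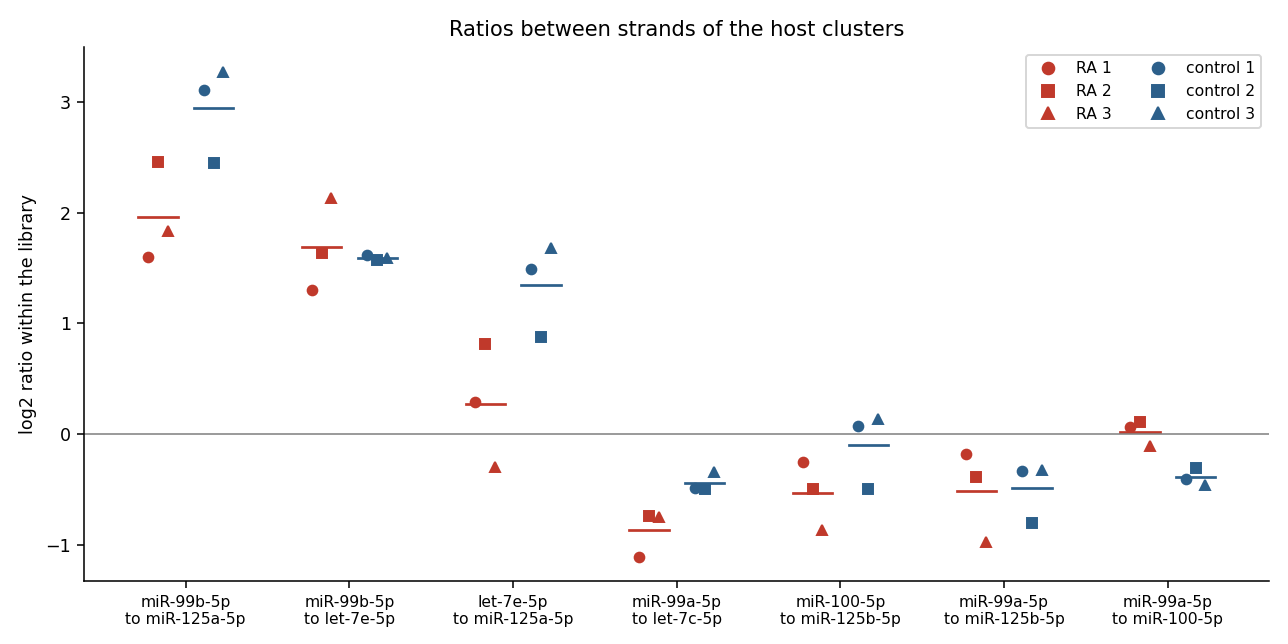
Log2 ratio of the first to the second named strand within each library, for 7 of the 8 ratios, RA left of control. Points are libraries and short lines are group means. The ratios of let-7e-5p to miR-125a-5p, of miR-99a-5p to let-7c-5p and of miR-99a-5p to miR-100-5p do not overlap between the groups, and the lowest p the exact test can give is 0.1.

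The 5p strands were also summed over each family. The miR-99/100 5p strands summed to 24462, 19336 and 25201 CPM in RA libraries 1, 2 and 3, against 25877, 22064 and 27779 CPM in the controls. The miR-125 5p strands summed to 11926, 9100 and 16233 CPM in the RA libraries, against 9999, 12048 and 10498 CPM in the controls. Both sums overlapped between the groups, with log2 differences of -0.14 and 0.16, and the first was 0.04 with DESeq2 size factors and the second -0.05 without RA library 3. The miR-99/100 sum was 2.05, 2.12 and 1.55 times the miR-125 sum in RA libraries 1, 2 and 3, against 2.59, 1.83 and 2.65 times in the controls. All 11 strands together made up 3.44%, 3.34% and 5.02% of the CPM in the RA libraries, against 3.33%, 3.81% and 3.72% in the controls.

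The miRNAs most like the leading member of each family were found among 242 miRNAs averaging 10 CPM or more, with the members and the let-7 and miR-10 strands left out, by Pearson r of log2(CPM + 1) over the 6 libraries, as a description. For miR-99b-5p they were miR-28-5p (r = 0.91), miR-744-5p (0.88) and miR-150-5p (0.85), and for miR-125b-5p they were miR-28-3p (0.93), miR-150-5p (0.87) and miR-381-3p (0.86). miR-150-5p, a blood-cell miRNA, stood at 0, 0 and 212 CPM in RA libraries 1, 2 and 3, against 0.642 to 1.05 CPM in the controls. miR-381-3p stood at 6.91, 0 and 75.6 CPM in the RA libraries, against 0.526 to 3.03 CPM in the controls. The likeness of both rests largely on RA library 3, in which miR-99b-5p and miR-125b-5p were also highest. The libraries share the depth difference between groups, which cannot be told apart from the treatment in any of these values.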

How the data were processed

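Small RNA reads of 6 libraries (3 RA, 3 control) were counted per mature miRNA by the authors, who deposited a normalized signal per library (CPM scaled to an effective library size). Group columns on a log2 scale, also deposited, were not used. The submitters' notes name hg19. Which aligner and counter were used is not given in the sources used here. Of the 2694 values, 100% were whole multiples of the value of 1 read within 0.01 reads, so reads were recovered. For any 2 groups the study's statistics section gives Student's test, and for the sequencing values its methods give a fold and p threshold. Here limma 3.58.1 with a mean-variance trend (R 4.3.3) was fitted to log2(CPM + 1) of the 449 miRNAs, all libraries weighted alike. This scale understates the change of low miRNAs. edgeR 4.0.16, DESeq2 1.42.0 and limma-voom on the recovered reads, other scalings, pseudocounts of 0.5 and 5, filters on low values, a fit without a trend, a replicate block and leaving out each library were alternatives, and edgeR without each library was added after the data were examined. The test scripts were run on simulated reads before use, and no result rests on that run. Ratios were tested with an exact permutation test (scipy 1.17.1), and shares and sums were not tested. Named miRNAs were all listed strands of both families, of the let-7 hairpins of the same clusters and of miR-10a and miR-10b, and the 3 miRNAs most like the most abundant member of each family. For miR-99/100 that member was miR-99b-5p and for miR-125 it was miR-125b-5p. The members and lists were chosen with earlier results of these data known. Depth ranged between 176590 and 4111404 reads and was lower in every RA library than in every control, and molecules were not counted apart from PCR copies.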

Additional observations from a re-analysis of the deposited data

How the results depend on the processing

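Over all 449 miRNAs, limma called 13 higher and 21 lower, with 0 of the 11 strands among them. The number higher was 8 among miRNAs averaging 10 CPM or more, 37 with edgeR, 31 with DESeq2 and 46 with limma-voom. The number lower was 11 on library totals, 12 with upper-quartile factors, 11 with DESeq2 size factors (17 higher under each of these 3), 4 without a trend, 32 with edgeR and 36 with DESeq2. Leaving out 1 library gave 6 to 21 higher, 4 to 28 lower and 0 to 1 strands in limma. In edgeR, leaving out RA library 1, 2 or 3 gave 44, 49 and 23 higher, 48, 44 and 22 lower and 2, 1 and 0 strands, and leaving out control 1, 2 or 3 gave 17, 14 and 25 higher, 8, 14 and 16 lower and 0 strands each. One strand, miR-125a-5p, was called on library totals, with TMM, upper-quartile or DESeq2 size factors, and with edgeR, DESeq2 and limma-voom. The log2 fold change of all miRNAs had a median of 0.00 as deposited, 0.13 on library totals, 0.12 with upper-quartile factors and 0.17 with DESeq2 size factors. Relative to it, miR-125a-5p stood between 1.00 and 1.01 and miR-100-5p between -0.44 and -0.43 under every scaling. These narrow ranges are no support, as a change of scaling moves the strands and the median by nearly the same amount. Relative to the median of miRNAs averaging 10 CPM or more (-0.17 as deposited), miR-125a-5p stood at 1.17 and miR-100-5p at -0.27.

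Deviations from the group means correlated at 0.12, -0.19 and 0.13 for same-numbered libraries and at -0.25 to 0.14 for differently numbered ones. So few libraries cannot show whether the replicate numbers pair them. With the replicate number as a block, limma called 24 higher and 31 lower, 1 of the 11 strands (miR-125a-5p, adjusted p = 1.5e-04 from limma) and let-7a-5p (adjusted p = 0.0498).

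Of the 8 ratios, 3 near 0 changed sign when 1 library was left out. The log2 difference of miR-99b-5p to let-7e-5p ranged between -0.12 and 0.29 (-0.12 without RA library 3). That of miR-100-5p to let-7a-2-3p ranged between -0.85 and 0.17 (0.09 without RA library 3, 0.17 without control 1). That of miR-99a-5p to miR-125b-5p ranged between -0.19 and 0.20 (0.20 without RA library 3, 0.05 without control 1, 0.06 without control 3). The causes were not tested. The depth of RA library 2, where 3 reads were worth 15.6 CPM, limited the 3p strands of miR-99a and miR-100.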
